A study of Mus musculus with 6 samples.

Results

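The genes described here encode the proteasome, the large protease of the cytosol and nucleus. They were taken as all genes whose single symbol in the array's annotation starts with Psma, Psmb, Psmc, Psmd, Psme, Psmf or Psmg, which gave 49 genes with 103 probe sets out of 18193 genes on the array. Each gene is read through the probe set with the highest mean log2 signal over all 6 arrays, so signal level, and not the difference between the genotypes, chose the values. Of the 49 genes, 46 were above a low-signal limit, the 40th percentile of each array, on at least 3 of the 6 arrays and were tested. They stood among 12712 tested genes in all. Psmc3ip and Psme3ip1 carry the prefix but encode no subunit of the proteasome: Psmc3ip makes a protein of meiotic recombination, and Psme3ip1 a nuclear protein that binds an activator.

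The arrays compare whole hearts of mouse embryos on the C57BL/6N background at E10.5, 3 wild type (WT) and 3 in which a gene trap interrupts RhoE (Rnd3) in all tissues (KO). Rnd3 encodes a small GTP-binding protein that restrains the kinase ROCK1. By the series' design text, KO embryos die soon after this stage and littermate pairs were collected. No label ties a replicate number to a litter or says how many hearts an array holds, so p-values measure the spread between these arrays.

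The proteasome degrades proteins that carry chains of ubiquitin. Its barrel-shaped core has outer rings of alpha subunits and inner rings of beta subunits, and some of the beta subunits cut peptide bonds. A cap binds the core at one or both ends. Its base of ATPases unfolds the substrate and threads it into the barrel, and its lid removes the ubiquitin chain. Activators can take the place of the cap, and dedicated chaperones assemble both parts. In heart muscle this system turns over sarcomere and signalling proteins. Cells often adjust the subunit genes as a group through the transcription factors of the Nfe2l1 and Nfe2l2 genes.

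In the promoters of these genes, CCGGAAG, the core of the site bound by ETS factors, was found in most cap genes and in few core genes. No test was made of that difference. A promoter window of 300 bases (250 before and 50 after an annotated start, RefSeq, GRCm38.p6) was at hand for 41 of the 49 genes. The search covered both strands. CCGGAAG was found in 9 of 14 cap genes (64.3%), in 1 of 15 core genes (6.67%, Psma6), in 4 of 10 genes of activators, the inhibitor and chaperones (40%) and in 9.93% of all 27025 genes with such a window. CCAAT, the box bound by NF-Y, was found in 8 of 15 core genes (53.3%), in 4 of 14 cap genes (28.6%) and in 41.1% of all genes. GGGCGG, the GC box bound by Sp factors, was found in 10 of 14 cap genes (71.4%), in 6 of 15 core genes (40%) and in 38.2% of all genes. TGACNNNGC, the core of the element bound by the Nfe2l1 and Nfe2l2 proteins, was found in 6 of the 41 genes (14.6%), namely Psmb5, Psmb6, Psmc6, Psmd12, Psmd9 and Psme4, against 14% of all genes. These are matches of letters and not measured binding. The 150 bases before the start are shown for the 4 proteasome genes with the smallest p in KO against WT and for the 2 with the lowest fold change, among genes with 1 annotated start at the edge of the gene. Capitals mark every match to the 4 motifs on either strand, and no matches overlap.
Psmd8 (chr7:29180674-29180823, minus strand): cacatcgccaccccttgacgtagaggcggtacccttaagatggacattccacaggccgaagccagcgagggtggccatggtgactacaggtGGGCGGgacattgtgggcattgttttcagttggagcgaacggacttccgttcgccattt
Psma1 (chr7:114276117-114276266, minus strand): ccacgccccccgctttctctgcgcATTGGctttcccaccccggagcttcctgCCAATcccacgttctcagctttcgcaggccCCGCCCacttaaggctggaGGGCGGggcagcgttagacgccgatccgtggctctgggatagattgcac
Psme1 (chr14:55578344-55578493, plus strand): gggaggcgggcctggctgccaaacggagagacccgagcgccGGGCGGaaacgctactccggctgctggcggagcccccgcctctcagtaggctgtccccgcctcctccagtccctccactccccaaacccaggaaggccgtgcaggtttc
Psma2 (chr13:14613092-14613241, plus strand): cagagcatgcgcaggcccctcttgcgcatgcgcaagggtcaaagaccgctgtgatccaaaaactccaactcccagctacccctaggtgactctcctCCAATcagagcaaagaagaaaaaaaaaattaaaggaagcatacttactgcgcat
Psmb3 (chr11:97703284-97703433, plus strand): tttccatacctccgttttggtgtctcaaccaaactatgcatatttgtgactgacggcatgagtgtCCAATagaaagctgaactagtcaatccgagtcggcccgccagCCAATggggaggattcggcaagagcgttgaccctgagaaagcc
Psmd4 (chr3:95042615-95042764, minus strand): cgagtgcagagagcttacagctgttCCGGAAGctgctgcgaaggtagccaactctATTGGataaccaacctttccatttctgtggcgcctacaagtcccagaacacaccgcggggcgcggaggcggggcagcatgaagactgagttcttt
Psmd8 and Psme1 hold 1 GC box each, which ends 54 and 104 bases before the start. Psma1 holds a pair of them on opposite strands, which end 44 and 63 bases before the start. Psma1, Psma2, Psmb3 and Psmd4 hold CCAAT or its reverse complement, and Psmd4 also holds CCGGAAG, 125 bases before the start.

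On the arrays, most proteasome genes had somewhat higher signals in KO than in WT hearts, but 1 passed the test. Psmd8, which encodes a subunit of the cap's lid, rose (limma, adjusted p = 0.0421), 45 did not pass and none fell. The 1 call makes 2.17% of the 46 tested genes, against 1.27% of all tested genes called in either direction, 0.787% higher and 0.488% lower. The log2 fold change was positive for 30 of the 46 (65.2%), against 43.8% of all tested genes, and its median was 0.08 against -0.04. Signals of all 3 KO arrays lay above all 3 WT arrays for 13 of the 46 (28.3%), against 10.8% of all tested genes. They lay below for 2 (4.35%), Psmb3 and Psmd4, against 15.5% of all tested genes. Among 1778 bright probe sets of all genes (mean signal at least 1000, not the brightest of their gene), 22.1% lay above and 14.6% below. The part of signal level in these shares was not tested. At an unadjusted p under 0.05, limma gave 13 of the 46 as higher and 1, Psmb3, as lower, against 8.54% and 11.8% of all tested genes. With a limit of 0.1 on the adjusted p, 7 of the 46 passed, all higher in KO, against 6.33% of all tested genes (3.22% higher and 3.12% lower). The 7 were Psmd8, Psmd7, Psma1, Psme1, Psma2, Psmb7 and Psmd10. With the Xist signal of each array as a covariate the median of the 46 was 0.03 and 25 were positive, while that of all tested genes was -0.02 and 6037 of 12712 were positive. Of the KO arrays only KO array 2 had Xist near the WT level, so this fit rests mostly on KO array 2 against WT. In that fit the log2 fold change was 0.13 for Psmb10, 0.10 for Psmb1, 0.08 for Psmg2 and 0.04 for Psmg1, each under the value without the covariate. Of the 7 genes above, Psma1 was also lower with the covariate, at 0.28. The rest of the 7 were higher, with Psmd8 at 0.56, Psmd7 at 0.52, Psmd10 at 0.50, Psme1 at 0.45 and Psma2 and Psmb7 at 0.35. None of them passed in that fit.

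**Figure D1:**
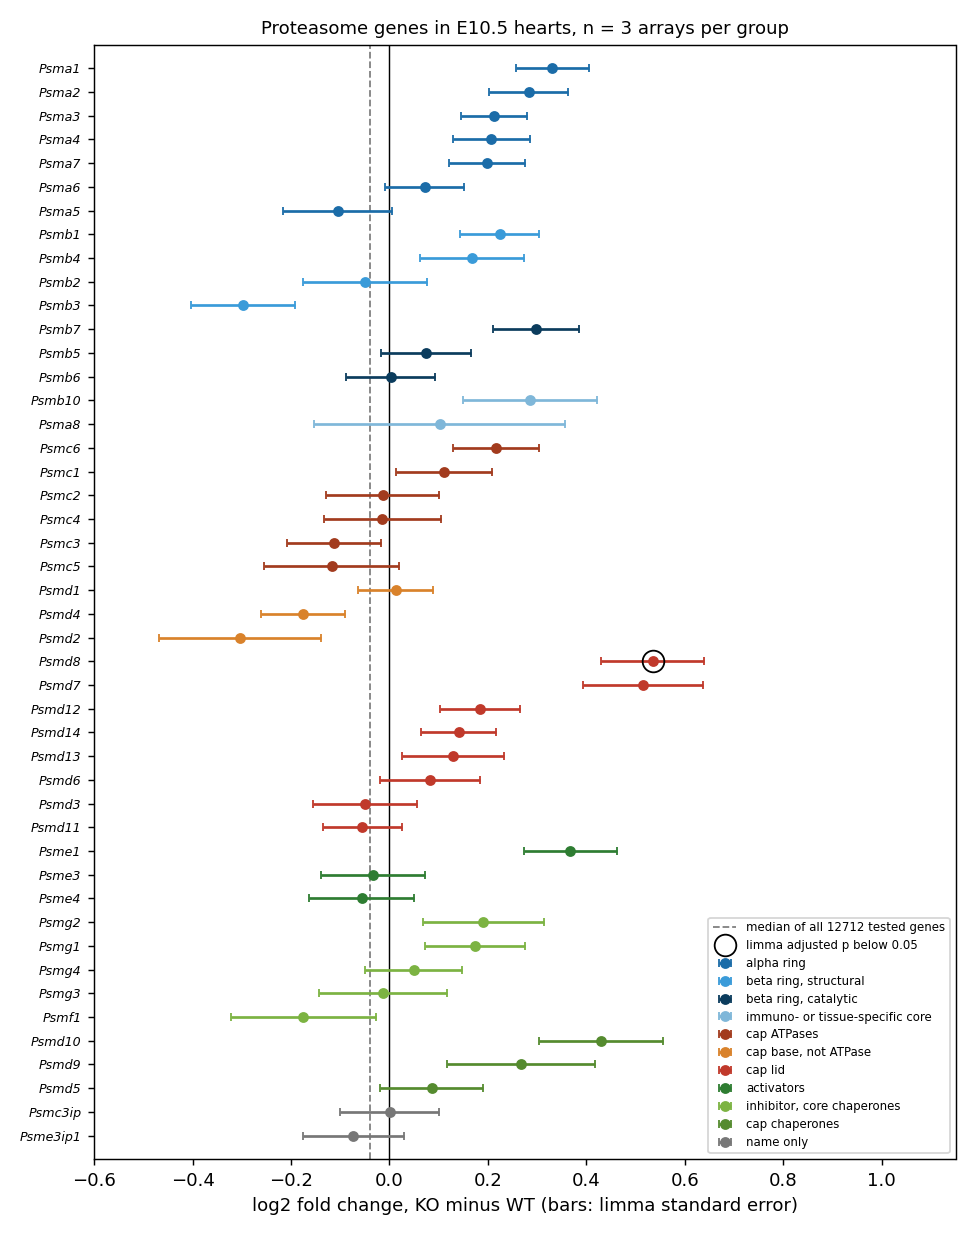
Log2 fold change (KO minus WT, x axis) of the 46 tested proteasome genes, grouped by role, with limma standard errors as bars and n = 3 arrays per group. The dashed line is the median of all 12712 tested genes, -0.04, and the circled gene, Psmd8 at 0.53, is the one past an adjusted p of 0.05.

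Some features of the arrays moved with genotype. Rnd3, the interrupted gene, read 862 to 954 on the WT arrays and 5.89, 12.3 and 121 on the KO arrays. Xist, which marks female tissue, read 10251 to 12474 on the WT arrays, 539 and 28.4 on KO arrays 1 and 3 and 8884 on KO array 2, so genotype and the share of male tissue cannot be told apart. Gapdh signal toward the 3' end over that toward the 5' end, which tracks how intact RNA is, averaged 1.11 ± 0.0175 over WT and 0.969 ± 0.0274 over KO arrays (SD, n = 3 per group), with no overlap. The same ratio for Actb averaged 2.52 ± 0.147 over WT and 2.40 ± 0.164 over KO arrays, with overlap. The part of RNA integrity in the results was not tested. All 10 cardiomyocyte markers were above the low-signal limit, with a summed signal of 268752 to 289311 in WT and 256012 to 284761 in KO. None of the 10 passed, and 7 overlapped. All KO arrays lay below all WT arrays for Myh6 (-0.25) and Nkx2-5 (-0.29), 20% against 15.5% of all tested genes. They lay above for Nppa (0.25), 10% against 10.8%. In whole hearts fewer cells of a type and less RNA per cell cannot be told apart. The 8 liver and yolk sac endoderm markers on the array summed to 1728 to 7667 in WT and 557 to 2055 in KO, and Alb, the albumin gene, fell by 1.97 (limma, adjusted p = 0.049997). The 5 platelet markers summed to 1493 to 1938 in WT and 1856 to 2365 in KO. Of them Ppbp, a platelet chemokine gene, rose by 1.02 (adjusted p = 0.049997) and 4 did not pass. Pf4 had 0.37, Itga2b 0.04, Gp1bb -0.008 and Gp9, above the limit on 5 arrays, -1.29, each with overlap. The 7 endothelial markers summed to 5848 to 6512 in WT and 6268 to 7044 in KO, with none past the test. Emcn had 0.54 (adjusted p = 0.101) and Tek 0.12, both with no overlap. With overlap, Pecam1 had 0.22, Tie1 0.11, Cdh5 0.003, Kdr -0.01 and Flt1 -0.02. The 7 erythroid markers summed to 92815 to 110657 in WT and 95797 to 110246 in KO. The part of these cells in the results was not tested.

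The genes of the alpha ring mostly had higher signals in KO. Of the 7 none passed the test, and the median was 0.21. A positive fold change was found for 6 (85.7%), against 43.8% of all tested genes. Every KO array lay above every WT array for 5 (71.4%), against 10.8% of all tested genes. These subunits form the outer rings, whose tails gate the entry to the barrel. Psma1 read 7474, 7404 and 7021 on the WT arrays and 8751, 9096 and 9720 on the KO arrays. The groups did not overlap, and the log2 fold change was 0.33 (SE 0.07, adjusted p = 0.0543). Psma1 passed without KO array 1 (adjusted p = 0.0295) and had -0.22 with its probe sets averaged, dim ones among them. Psma2 gave 7336, 7633 and 8371 on the WT arrays against 9062, 10090 and 9233 on the KO arrays. It was higher on each KO array, at 0.28 (SE 0.08, adjusted p = 0.0913). Psma3, Psma4 and Psma7 had 0.20 to 0.21, also without overlap, with adjusted p from 0.117 to 0.183. Psma6 had 0.07 and Psma5 -0.10, and for both the groups overlapped.

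Of the 4 structural beta subunit genes, which hold the inner rings together without cutting, none passed, and they went both ways. Psmb1 gave 6857, 7059 and 7157 on the WT arrays against 8211, 7547 and 8902 on the KO arrays, at 0.22 (SE 0.08, adjusted p = 0.155). All KO arrays lay above the WT arrays. Psmb3 gave 9875, 10806 and 10692 on the WT arrays against 9600, 7100 and 9007 on the KO arrays, at -0.30 (SE 0.11, adjusted p = 0.153). All KO arrays lay below the WT arrays here, KO array 2 furthest, and without that array Psmb3 had -0.17. With the Xist covariate, in a fit that rests mostly on KO array 2, Psmb3 had -0.48 (adjusted p = 0.0805). Psmb4 had 0.17 and Psmb2 -0.05, with overlap, and Psmb2 was lowest on KO array 2 (3161 against 4026 or more elsewhere).

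None of the 3 catalytic subunit genes passed. Psmb7, whose product cuts after basic residues, gave 2164, 2114 and 2195 on the WT arrays against 2483, 2840 and 2647 on the KO arrays. The groups were apart, at 0.30 (SE 0.09, adjusted p = 0.0981). Psmb5, whose product cuts after hydrophobic residues and is the main target of proteasome inhibitors such as bortezomib, gave 5605, 6185 and 6970 on the WT arrays against 6827, 6201 and 6667 on the KO arrays. Its groups overlapped, at 0.07 (SE 0.09, adjusted p = 0.688). Psmb6, whose product cuts after acidic residues, gave 7893, 7806 and 8882 on the WT arrays against 8636, 7311 and 8717 on the KO arrays. It had 0.0026 (SE 0.09, adjusted p = 0.991), and its sign was negative with quantile normalization.

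Of the subunits that replace these 3 in immune cells or after interferon, Psmb8 and Psmb9 were dim in both genotypes and Psmb10 was not. Psmb8, the counterpart of Psmb5, gave 2.56, 10.4 and 13.8 on the WT arrays against 7.15, 6.62 and 23.8 on the KO arrays, below the low-signal limit of 44.5 to 52.8 on all 6 arrays. Psmb9, the counterpart of Psmb6, gave 8.97, 50.4 and 19.2 on the WT arrays against 62.9, 56.2 and 36.7 on the KO arrays. It was above the limit on KO arrays 1 and 2 and on no WT array, and was not tested. Psmb10, the counterpart of Psmb7, was above the limit on all arrays, with 541, 627 and 698 in WT and 684, 713 and 879 in KO. The groups overlapped, at 0.29 (SE 0.14, adjusted p = 0.263). Psma8, an alpha subunit of the testis, gave 107, 88.2 and 105 on the WT arrays against 122, 124 and 81.4 on the KO arrays, at 0.10 (SE 0.25, adjusted p = 0.855), with overlap. Psmb11, the beta subunit of the thymus, was above the limit on WT array 3 alone (56.0) and was not tested.

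Immune cell markers stood beside these subunits as follows. The 9 macrophage markers summed to 1175 to 1299 in WT and to 1263, 2559 and 1504 on KO arrays 1, 2 and 3. Of them Lyz2, a lysozyme gene, rose by 1.38 (limma, adjusted p = 0.0374), and 8 did not pass. Lyz2 read 203 to 261 on the WT arrays and 368, 828 and 707 on KO arrays 1, 2 and 3. Csf1r had -0.02, Laptm5 -0.05, Adgre1 0.02, Cd68 0.09, Mrc1 0.12, C1qb 0.13, Fcer1g 0.56 and Tyrobp 0.57, each with overlap. Of 6 lymphoid markers on the array, Cd3e, Cd3g, Cd79a and Cd79b were below the limit on all 6 arrays. Ptprc was above it on KO array 2 alone (79.3) and was not tested. Ikzf1 was above it on all 6 arrays and had -0.41 with overlap (adjusted p = 0.449). Of 11 interferon and antigen presentation genes, 6 were tested and none passed, with a median of -0.02. Ifit3 and Nlrc5 were below the limit on all 6 arrays. The part of these cells in the Psmb9 and Psmb10 signals was not tested.

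The cap genes ranged from -0.30 to 0.53 and the core genes from -0.30 to 0.33. Over 17 tested cap genes 1 rose, none fell and 16 did not pass. Their median was 0.01, against 0.18 over the 16 tested core genes. The core median lay between 0.07 and 0.24 over the 17 alternatives. That of the cap was -0.02 with quantile normalization, -0.06 with the Xist covariate and 0.11 without KO array 2. With the mean of a gene's probe sets in place of the brightest, the core median was 0.07 and the cap median 0.06. The difference between the medians of core and cap was not tested.

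Of the 8 lid genes Psmd8 rose, 6 had a positive fold change (75%, against 43.8% of all tested genes), and the median was 0.14. Psmd8 encodes a lid subunit needed for the lid to join the base. It gave 2403, 2612 and 2481 on the WT arrays against 3107, 3975 and 3837 on the KO arrays. All KO arrays lay above all WT arrays, KO array 1 the least, and the log2 fold change was 0.53 (SE 0.10, adjusted p = 0.0421). Psmd8 missed the threshold without the filter (adjusted p = 0.0587), with median centring (0.0516) and with every probe set tested (0.0524). It missed as well with averaged probe sets (0.106), without the intensity trend (0.206) and with the Xist covariate (0.0776). It also missed with any 1 WT array left out (adjusted p from 0.120 to 0.188) and without KO array 2 (0.0740) or 3 (0.142), and passed without KO array 1 (0.00736). Psmd7, whose product pairs with the deubiquitinase of the lid, gave 1500, 1570 and 1363 on the WT arrays against 1754, 2321 and 2300 on the KO arrays, at 0.52 (SE 0.12, adjusted p = 0.0608). The groups were apart, with the same order of KO array 1 below the other two. Psmd7 passed without KO array 1, at 0.65 (adjusted p = 0.0110). With any 1 WT array left out its adjusted p was 0.174 to 0.203. It had 0.06 with its probe sets averaged, dim ones among them (adjusted p = 0.930). Psmd12 had 0.18 with no overlap. Psmd14, the deubiquitinase itself, had 0.14 (adjusted p = 0.329), and Psmd13, Psmd6, Psmd3 and Psmd11 lay between -0.06 and 0.13.

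Of the 6 ATPase genes of the base none passed, and 4 had a negative fold change. Psmc6 gave 5322, 4765 and 4932 on the WT arrays against 5416, 6367 and 5686 on the KO arrays. By brightest probe sets it was the only one of the 6 whose groups did not overlap, at 0.22 (SE 0.09, adjusted p = 0.194). Psmc3 gave 6109, 7630 and 7406 on the WT arrays against 6774, 6122 and 6580 on the KO arrays, at -0.11 (SE 0.10, adjusted p = 0.539), with overlap. Psmc1, Psmc2, Psmc4 and Psmc5 lay between -0.12 and 0.11. A further Psmc2 probe set had 0.25 with no overlap (adjusted p = 0.150). Psmc5 was lowest on KO array 2, at 2499 against 3403 or more on the other arrays.

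The 3 other genes of the base, none past the test, included the lowest log2 fold change of the family. Psmd4, a receptor for ubiquitin chains, gave 3390, 3364 and 3138 on the WT arrays against 3031, 2738 and 2998 on the KO arrays. Its groups did not overlap, at -0.17 (SE 0.08, adjusted p = 0.272). Psmd2, a scaffold that docks ubiquitin shuttles, gave 3364, 3612 and 3241 on the WT arrays against 3310, 1986 and 3187 on the KO arrays, at -0.30 (SE 0.16, adjusted p = 0.327). Its groups overlapped, and the value rests on KO array 2, since it was -0.07 without that array. With the Xist covariate Psmd2 had -0.67 (adjusted p = 0.0705), and that fit too rests mostly on KO array 2. Psmd1, the other scaffold, had 0.01.

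Among the 3 tested activators Psme1 stood apart from Psme3 and Psme4, and none passed. Psme1, a subunit of the interferon-inducible activator ring, gave 3789, 4136 and 4677 on the WT arrays against 5282, 5760 and 5172 on the KO arrays. The groups did not overlap, at 0.37 (SE 0.09, adjusted p = 0.0720). Psme4, an activator that acts on histones, gave 3707, 3972 and 4348 on the WT arrays against 3514, 3627 and 4467 on the KO arrays, at -0.06 (SE 0.11, adjusted p = 0.802). Its sign was positive with median centring, at 0.0023, and it had -0.22 with the Xist covariate. Further Psme4 probe sets had groups that were apart in opposite directions, at 0.21 and 0.28 for a pair of them and at -0.73 for another (SE 0.18, adjusted p = 0.0767), and none passed. Psme3, the nuclear activator, had -0.03.

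The chaperones of the cap's base had positive fold changes and none passed. Psmd10, also known as gankyrin, an oncoprotein and X-linked, gave 586, 570 and 508 on the WT arrays against 646, 840 and 763 on the KO arrays. No KO array overlapped the WT arrays, and the fold change was 0.43 (SE 0.13, adjusted p = 0.0981). It passed without KO array 1, at 0.53 (adjusted p = 0.0349). Psmd9 gave 479, 540 and 517 on the WT arrays against 578, 520 and 778 on the KO arrays, at 0.27 (SE 0.15, adjusted p = 0.344). KO array 3 was high and KO array 2 lay within the WT range. The sign of Psmd9 was negative with the Xist covariate (-0.04), and Psmd5 had 0.09.

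The 4 core chaperone genes and the inhibitor gene Psmf1 did not pass, and all overlapped on their brightest probe sets. Psmg1, which with Psmg2 starts the assembly of the alpha ring, gave 2192, 2285 and 2487 on the WT arrays against 2791, 2311 and 2769 on the KO arrays, at 0.17 (SE 0.10, adjusted p = 0.369). Psmg2, its partner, gave 1933, 1590 and 1421 on the WT arrays against 1755, 1801 and 2054 on the KO arrays, at 0.19 (SE 0.12, adjusted p = 0.414). A further Psmg2 probe set gave 1214, 1083 and 1121 on the WT arrays against 1528, 1514 and 1546 on the KO arrays. Its groups were apart, at 0.43 (SE 0.10, adjusted p = 0.0665). Psmg3 and Psmg4 had -0.01 and 0.05, and Psmf1 had -0.17. Further Psmf1 probe sets had 0.29 with no overlap and 0.19 and -0.06 with overlap, and none passed. The genes that only share the prefix, Psmc3ip and Psme3ip1, had 0.00022 and -0.07.

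**Figure D2:**
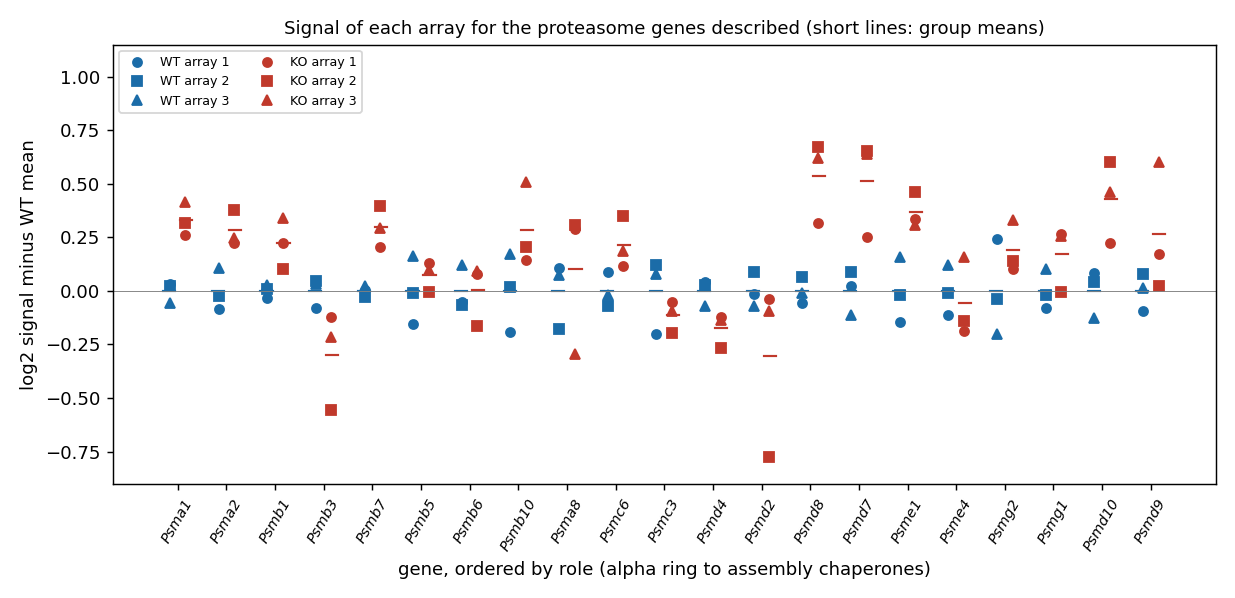
Log2 signal minus the WT mean (y axis) on each array for the tested proteasome genes given in full, blue for WT and red for KO, with the marker shape giving the array number and short lines the group means. For Psmd8, Psmd7 and Psmd10 KO array 1 lies below the other KO arrays, and for Psmb3 and Psmd2 KO array 2 lies far below.

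The KO arrays differed from each other in how the family moved. The median deviation from the WT mean over the 46 genes was 0.12, 0.01 and 0.16 on KO arrays 1, 2 and 3, against -0.01, -0.03 and -0.04 over all tested genes. For core genes it was 0.16, 0.14 and 0.18. For cap genes it was 0.11, -0.07 and 0.12, so that KO array 2 lay below the WT arrays there. KO array 2 was the lowest of the 6 arrays for 7 of 17 cap genes (41.2%) and the highest for 3. Over all tested genes it was lowest in 26.3% and highest in 22.3%. WT array 1 was the lowest array for 17 of the 46 genes (37%), against 15.7% of all tested genes. KO array 3 was the highest for 16 (34.8%), against 13.9%. The SD of log2 signals was larger in KO than in WT for 31 of the 46 genes (67.4%) and for 60.5% of all tested genes.

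**Figure D3:**
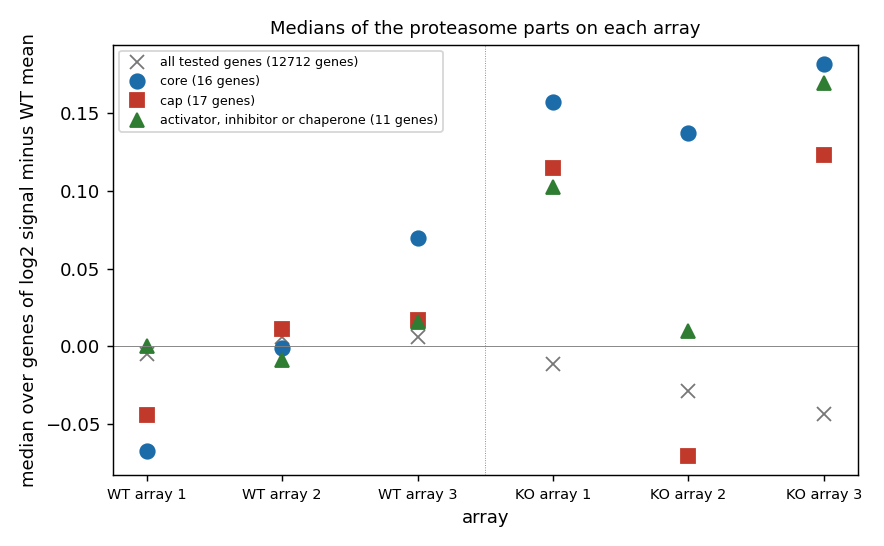
Median over genes of log2 signal minus the WT mean (y axis) on each of the 6 arrays (x axis) for core, cap and other proteasome genes and for all tested genes. Core medians are 0.14 to 0.18 on the KO arrays, while the cap median is -0.07 on KO array 2.

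A gene can have several probe sets on this array, and for the proteasome the brightest one was often not the one with the largest difference. Besides the brightest, 38 probe sets of 23 genes were tested, and 20 of them had the sign of the brightest one. Of the 16 with a mean signal of at least 1000, 13 had a positive fold change and 13 a higher one than the brightest probe set of the gene. Their median was 0.21. All KO arrays lay above all WT arrays for 10 of the 16, against 22.1% of all 1778 further probe sets as bright. They lay below for none, against 14.6%. The 22 dimmer ones were divided evenly, 11 positive and 11 negative, with a median of -0.02. The counts of signs and of values above the brightest probe set, and these medians, were not taken over all genes. They therefore cannot be read as particular to the proteasome.

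When each probe set was a test of its own, 2 of the 84 proteasome probe sets passed (2.38%), both higher in KO, against 0.416% of all 23339 tested probe sets called higher and 0.214% called lower. Both are further probe sets, named here after their values were seen. That of Psma6 gave 5217, 5676 and 5665 on the WT arrays against 7356, 8725 and 7932 on the KO arrays, at 0.53 (SE 0.09, adjusted p = 0.0342). The brightest probe set of Psma6 gave 14422, 14249 and 16885 on the WT arrays against 16465, 15276 and 16002 on the KO arrays. The groups were apart on the first and overlapped on the second. That of Psmb4 gave 6873, 7436 and 7437 on the WT arrays against 10063, 9638 and 11250 on the KO arrays, at 0.51 (SE 0.08, adjusted p = 0.0342). The brightest one gave 10179, 10025 and 12904 on the WT arrays against 12722, 11060 and 13257 on the KO arrays. KO lay above WT on every array in the first and not in the second. By the maker's naming, a probe set ending in _x_at holds probes that can also bind other transcripts. The brightest probe sets of Psma6 and Psmb4 end so, as do those of Psmc2 and Psmb8, and the 2 that passed do not. Whether other transcripts add to the signals of these brightest probe sets, which gave the values of their genes above, was not tested. The Psma6 call was missed with any 1 WT array or KO array 2 or 3 left out (adjusted p from 0.0590 to 0.177), with the Xist covariate (0.0809) and without the intensity trend (0.272). The Psmb4 call was missed with any 1 WT array or KO array 3 left out (adjusted p from 0.0853 to 0.177), with the Xist covariate (0.108), without the intensity trend (0.272) and with median centring (0.0611).

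Some genes had probe sets that went opposite ways. A further probe set of Psmd4 gave 1527, 1446 and 1648 on the WT arrays against 1690, 1743 and 1910 on the KO arrays, at 0.21, while the brightest was at -0.17. Neither passed, and on both the groups were apart. A further Psmb3 probe set had 0.04 against -0.30 of the brightest, and a further Psmc2 probe set 0.25, with groups apart, against -0.01. For Psmd7 and Psma1, whose further probe sets were dim, the tested ones had -0.36 for Psmd7 and -0.63 and -0.12 for Psma1. One more of Psma1 passed the low-signal limit on no array and was not tested, with a mean of 39.0 in WT and 28.2 in KO. The mean over all Psma1 probe sets, with that one included, was -0.22. Psmd8, Psme1, Psma2, Psmb7 and Psmd10 have 1 probe set each.

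**Figure D4:**
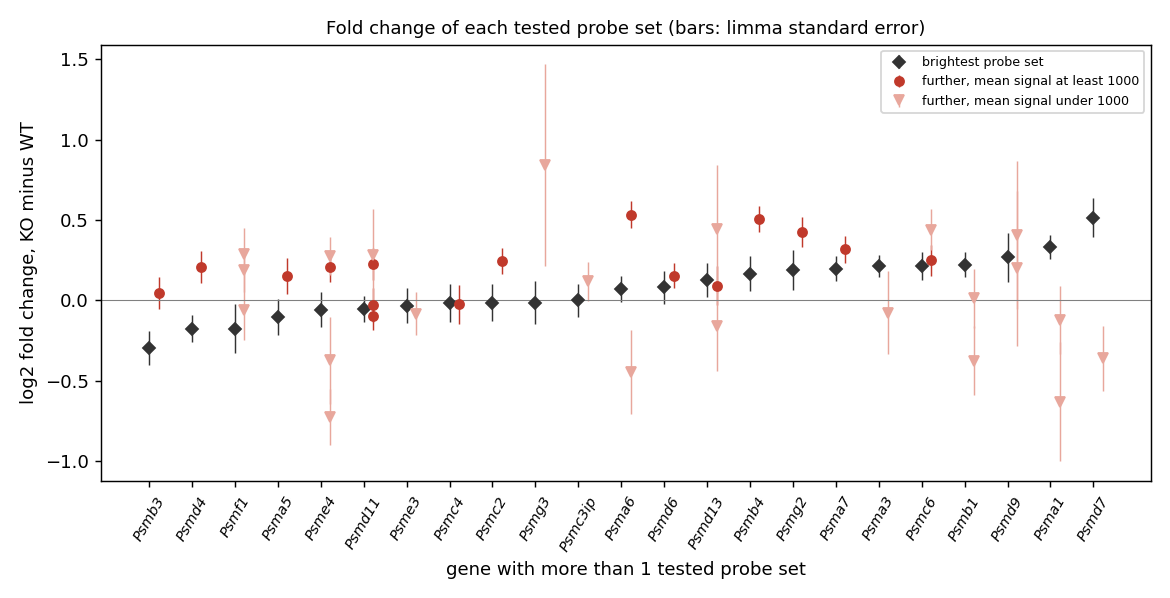
Log2 fold change (KO minus WT, y axis) with limma standard errors for every tested probe set of the 23 proteasome genes with more than 1, ordered by the brightest probe set (diamonds). Further probe sets with a mean signal of at least 1000 (circles) lie above the diamond of their gene in 13 of 16 cases, Psma6 and Psmb4 among them. The matching share over all genes was not taken.

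Other genes of the ubiquitin system were compared through a list of 33 genes, of which 23 had a probe set of their own here. Of these 1 rose, none fell and 22 did not pass, against 1.27% of all tested genes called. Their median was -0.10 and 10 had a positive fold change (43.5%), against -0.04 and 43.8% of all tested genes. All KO arrays lay below all WT arrays for 7 of the 23 (30.4%) and above for 4 (17.4%), against 15.5% and 10.8%. The one that rose was Pomp, the maturation factor that brings the rings of beta subunits into the core and is degraded as its first substrate. Pomp gave 5065, 5111 and 5081 on the WT arrays against 6154, 7547 and 7123 on the KO arrays, at 0.44 (SE 0.09, adjusted p = 0.0425). All KO arrays lay above all WT arrays, KO array 1 the least. The call for Pomp was lost with any 1 WT array left out (adjusted p from 0.120 to 0.192) and without KO array 2 or 3 (0.0740 and 0.144). It was also lost with median centring (0.0689), without the filter (0.0603), with averaged probe sets (0.107), with every probe set tested (0.0531), without the intensity trend (0.206) and with the Xist covariate (0.0753).

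The transcription factor genes Nfe2l2 and Nfe2l1 had opposite signs, and neither passed. Nfe2l2 gave 1471, 1441 and 1506 on the WT arrays against 1889, 1939 and 1866 on the KO arrays, with no overlap, at 0.37 (SE 0.09, adjusted p = 0.0609). With its probe sets averaged it had -0.04. Nfe2l1 had -0.13 (adjusted p = 0.508), and Keap1, which holds the Nfe2l2 protein in check, -0.14. Zfand5, a proteasome-binding protein induced in wasting muscle, gave 6642, 6527 and 6985 on the WT arrays against 5796, 4995 and 5356 on the KO arrays, at -0.32 (SE 0.08, adjusted p = 0.0689). All KO arrays were lower, and Zfand5 passed with quantile normalization (adjusted p = 0.0446). All KO arrays were lower also for Bag6, a chaperone of misfolded membrane proteins, at -0.42 (SE 0.11, adjusted p = 0.0848). Bag6 gave 1518, 1429 and 1527 on the WT arrays against 1238, 949 and 1173 on the KO arrays. Without KO array 1, which lay nearest to WT for both, Zfand5 and Bag6 passed as lower (adjusted p = 0.0305 and 0.0363).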

How the data were processed

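Heart RNA of mouse embryos at E10.5 was measured on 6 arrays, 3 WT and 3 KO by the genotype in their labels, of an Affymetrix mouse expression design. Each deposited value is the signal intensity of 1 probe set, not log-transformed. Per the submitters' processing notes, the authors used MAS5 and Affymetrix Expression Console. No version or setting is given in the labels. In the deposited values the mean after trimming 2% at each end was 500 on every array, so no further scaling was applied. Detection calls were not used, so the 40th percentile of each array (44.5 to 52.8) served as low-signal limit.

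The 64 control probe sets were left out. Of the other 45037, 34945 had 1 gene symbol in the platform annotation, 932 several and 9160 none. A gene entered the test where its brightest probe set passed that limit on 3 or more arrays. R 4.3.3 with limma 3.58.1 fitted the log2 signals (lmFit, then eBayes with a trend on intensity) as KO minus WT. P-values were adjusted by Benjamini-Hochberg over all 12712 tested genes, and genes under 0.05 are said to have risen or fallen. For arrays, their number limits the precision. The procedure was tested on simulated data.

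The members, gene lists and naming rule were chosen with earlier results of these data known. Full values are given for proteasome genes past the threshold, the catalytic and immunoproteasome subunits and the 2 tested genes with the smallest p in each role, and for the ubiquitin genes past the threshold or among the 4 with the smallest p. Further genes and probe sets are named by their role. Alternatives covered normalization, filter, probe set choice, variance model, array weights, a replicate block, the Xist signal as a covariate and leaving out each array. The motif search was added with the results known.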

Additional observations from a re-analysis of the deposited data

Results flagged for a closer look

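1 probe set outside the comparisons stood above the WT arrays. It is annotated to 2 symbols that both start with Psme, so it was assigned to no gene and not tested. It gave 1939, 1971 and 1969 on the WT arrays against 2397, 2787 and 2626 on the KO arrays, a log2 difference of 0.41 with every KO array above every WT array. Groups of 3 arrays are too small for a search for single outlying arrays.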

How the results depend on the processing

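The single proteasome call, Psmd8, and the 162 calls over all tested genes (100 higher, 62 lower in KO) depended on the processing, and the cause was not tested. Proteasome calls and, in brackets, calls over all genes were 0 (83, of which 67 higher and 16 lower) with median centring, 0 (1) without the filter, 0 (0) with the mean of a gene's probe sets, 0 (83) with every probe set tested, 0 (1) without the intensity trend and 0 (6) with the Xist covariate. They were 3 (291) with the limit passed on all 6 arrays, 4 (542) with array weights and 7 (805) at a threshold of 0.1. With single arrays left out they ranged from 0 to 4 (0 to 916), the highest without KO array 1, the lowest for all genes without WT array 1 or 2. Psmd8 kept its direction under the 17 alternatives, with an adjusted p of 0.00736 to 0.206.

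The core median was 0.072 with the mean of a gene's probe sets, where the cap had 0.059, and 0.11 with the Xist covariate. That of the cap was 0.00 to 0.11 with single arrays left out. Of 425 values of 25 named genes, 372 kept direction and side of the threshold. The sign turned for Psmb6 with quantile normalization (-0.047) and the Xist covariate (-0.13), for Psmd9 with the latter (-0.044) and for Psme4 with median centring (0.0023) and array weights (0.00082). With averaged probe sets it turned for Psmd4 (0.24), Psma1 (-0.22), Psmb1 (-0.045) and Nfe2l2 (-0.043). With single arrays left out, Psmb6 ranged from -0.042 to 0.085, Psme4 from -0.16 to 0.0088, Psmb5 from -0.0014 to 0.16 and Psma8 from -0.0017 to 0.30.

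Deviations from the group mean correlated at 0.0182, 0.0573 and 0.0150 between same-numbered WT and KO arrays. Of the 3 WT arrays, 2 correlated best with the KO array of their own number. With 3 arrays per group, these values cannot settle whether the numbers mark pairs. With a replicate block 189 genes passed, Psmd8 the 1 proteasome gene among them. The number of arrays limits precision, and signals near the low-signal limit, such as those of Psmb8, Psmb9 and Psmb11, give no order between genotypes.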
